A study of Raphidocelis subcapitata with 493 samples.

Results

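Perfluoropentanoic acid (PFPeA) and perfluoroheptanoic acid (PFHpA) are straight-chain perfluorinated carboxylic acids with fluorinated chains of unequal length, the longer one in PFHpA. Their libraries were chosen by compound label and nominal concentration, at 0.1, 0.3, 1, 3, 32 and 100 µM, and by no measured value. This gave 35 of the 493 libraries of the series, 18 with PFPeA and 17 with PFHpA. Each concentration had 3 libraries of each acid, except 100 µM PFHpA with 2. Both acids were tested in the same exposure and were set against the same 3 DMSO libraries. The 6 libraries at 10 µM were kept out of the fit and are used only where named.

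The study exposed Raphidocelis subcapitata, a unicellular freshwater green alga, to 22 per- and polyfluoroalkyl substances (PFAS) in multiwell plates. All groups, controls included, were exponentially growing cells in Woods Hole MBL medium, exposed for 24 h with 0.33% solvent, and RNA came from pooled homogenates. The 12 treated groups are PFPeA and PFHpA at each of the 6 concentrations, and the control group received DMSO alone. The libraries were made with a QuantSeq 3' kit with molecular identifiers, which reads the end of each polyadenylated transcript. Concentrations are nominal, and the labels give no well positions, so that compound, concentration and position on the plate cannot be told apart.

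In perfluorinated acids, fluorine replaces the hydrogens along the carbon chain, leaving a strongly acidic head group that is ionised in water. Among acids of one head group, a longer chain generally goes with stronger partitioning to proteins and membranes, and short-chain members are highly mobile in water. R. subcapitata is a standard species for growth inhibition tests, as a primary producer with a short life cycle. The count tables identify genes by number and do not pair the identifiers with names or products, so that genes are described here by level, direction and size of change, and no pathway was assigned.

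The 38 libraries, controls included, held 902041 to 1794988 counts, with a median of 1241472. Of 13429 genes, 9793 passed the filter on low counts and were tested. The first principal component of the log2 scaled counts (CPM) held 9.76% of the variance. The 0.1 µM libraries stood somewhat apart. The median correlation of a library with the others was 0.912 to 0.942 in these 6 libraries and 0.92 to 0.95 in the other 32, and 4 of the 5 lowest values were at 0.1 µM. The lowest were 0.912 in PFHpA replicate 1 and 0.915 in PFPeA replicate 3. These 2 libraries lay at opposite ends of the first principal component, at -41.4 and 42.7. Counts for the means and for each acid's slopes are given below with and without the 0.1 µM libraries. The medians per concentration and the reading at 10 µM use gene lists chosen with them. Whether replicates were separate cultures is not in the labels, and the p-values cover the spread between libraries, which may be technical.

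At each concentration more genes passed the test against DMSO with PFPeA than with PFHpA, and the counts were small for both. At 0.1 µM the order was the opposite with library totals, 7 against 10 genes, and with DESeq2, 78 against 108. At 100 µM, PFPeA changed 70 genes, 0.715% of those tested, with 25 higher and 45 lower than DMSO. The median size of these changes was 0.99 on the log2 scale, with a range of 0.55 to 2.22, and 34 of the 70 were at least 2-fold. At 100 µM, PFHpA changed 15 genes (0.153%), 4 higher and 11 lower, with a median size of 1.14 and 13 at least 2-fold. A change was called at an adjusted p under 0.05 in edgeR's quasi-likelihood test. Whether the acids differed is tested further on, since a larger count is no test of a difference.

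Below 100 µM, PFPeA changed 31 genes at 0.1 µM (0.317%), all higher than DMSO, and 6 at 0.3 µM (0.0613%), all higher. At 1 µM 1 gene was higher (0.0102%). At 3 µM 31 genes changed (0.317%), 17 higher and 14 lower, and at 32 µM 31 changed (0.317%), 18 higher and 13 lower. These counts rest on a spread estimated over all 13 groups. Fitted with the DMSO libraries alone, PFPeA gave 0 genes at 0.1 µM, so that none of the 31 calls remained. The same fit gave 17, 9 and 61 genes at 0.3, 1 and 3 µM. The absence of decreases up to 1 µM depended on the processing. DESeq2 called 13, 5 and 1 genes lower at 0.1, 0.3 and 1 µM, the fit without a filter on low counts called 8, 10 and 6, and the fit without the libraries of replicate 1 called 9 at 0.1 µM. These counts moved when libraries were left out, which also leaves fewer libraries per group. Without the libraries of replicate 2 at all concentrations, the PFPeA counts were 1, 1, 0, 2, 6 and 9 genes from 0.1 to 100 µM, and without DMSO replicate 2 they were 4, 1, 1, 10, 4 and 34. At 100 µM, leaving out PFPeA replicate 1, 2 or 3 gave 43, 24 or 31 genes, and leaving out DMSO replicate 1 gave 40.

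PFHpA changed 7 genes at 0.1 µM (0.0715%), 4 higher and 3 lower than DMSO, and 2 at 32 µM (0.0204%), 1 in each direction. At 0.3, 1 and 3 µM edgeR called 0 genes, beside 644, 408 and 574 genes at an unadjusted p under 0.05, while DESeq2 called 2, 0 and 6. The count at 100 µM rested on 2 PFHpA libraries. It fell when either was left out, but 1 library then remains, so lost precision and the library left out cannot be told apart. Leaving out DMSO replicate 1 or 2 gave 8 genes in each case. At 0.1 µM the count was 45 without the libraries of replicate 1 and 0 without those of replicate 2. The 95% interval of a gene's log2 change had a median half-width of 0.67 for 0.1 µM PFPeA and 0.75 for 100 µM PFHpA, and a smaller change was not detectable in the median gene. The interval is not adjusted over genes while the calls are, so that larger changes could be missed as well.

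**Figure D1:**
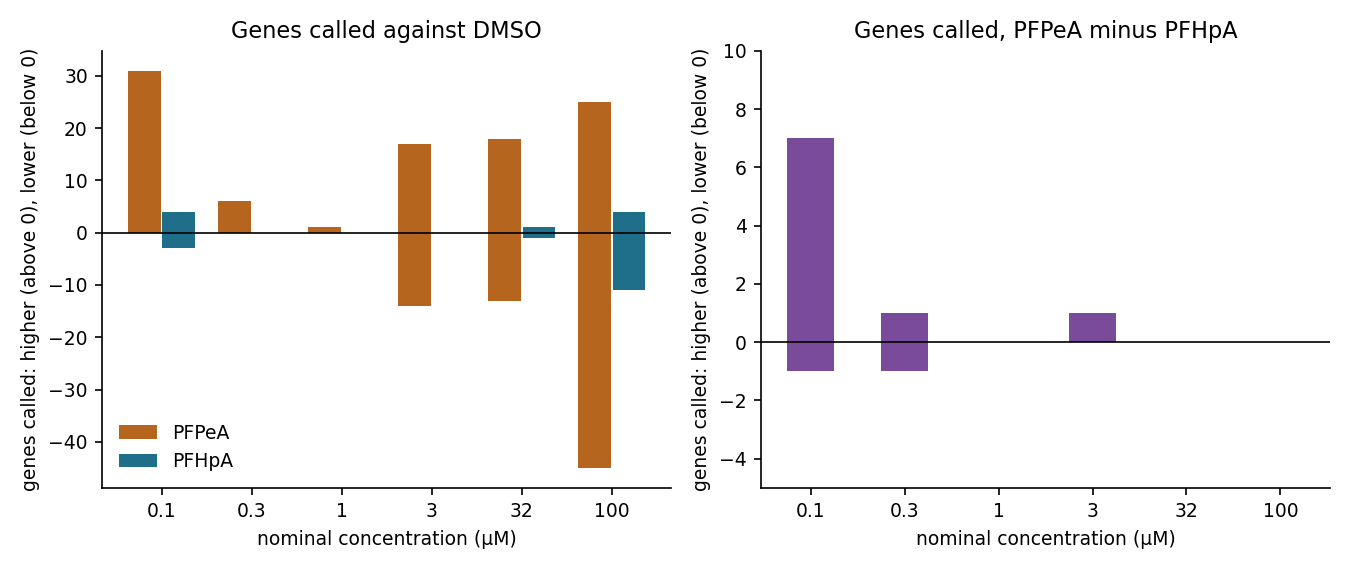
Number of genes called at each nominal concentration (x axis, µM; y axis, genes with an adjusted p under 0.05, higher above 0 and lower below). The left panel shows PFPeA and PFHpA against the 3 DMSO libraries, where PFPeA reached 70 genes and PFHpA 15 at 100 µM, and the right panel shows PFPeA minus PFHpA, where the counts were 8, 2, 0, 1, 0 and 0.

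The direct comparison of the acids at matched concentrations called few genes. PFPeA differed from PFHpA in 8 genes at 0.1 µM (0.0817%), 7 higher and 1 lower with PFPeA. At 0.3 µM 2 genes differed (0.0204%), 1 in each direction, and at 3 µM 1 gene was higher with PFPeA (0.0102%). Between the acids edgeR called 0 genes at 1, 32 and 100 µM, beside 465, 298 and 184 at an unadjusted p under 0.05, and DESeq2 also called 0 at each. All p-values of these 6 comparisons were adjusted together over genes and concentrations. Adjusted within 0.1 µM alone, 41 genes were called. The calls at 0.1 µM numbered 11, 2 and 0 when the libraries of replicate 1, 2 or 3 were left out, and those at 0.3 and 3 µM numbered at most 1 and 0.

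Genes at an unadjusted p under 0.05 made up 12.9% of those tested at 0.1 µM. Their share was 4.75%, 3.04% and 1.88% at 1, 32 and 100 µM. A missed threshold does not show that the acids act alike. The interval of the difference at 100 µM lay within 2-fold in either direction for 5075 genes, 51.8% of those tested, with a median half-width of 0.74 on the log2 scale. At 32 µM it did so for 5740 genes (58.6%), and at 0.1 µM for 5006 (51.1%). For the other genes at these concentrations, the interval reached beyond 2-fold in at least 1 direction.

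Averaged over the 6 concentrations, a difference between the acids became measurable. PFPeA libraries differed from PFHpA libraries in 220 genes (2.25%), 109 higher and 111 lower with PFPeA. Their size had a median of 0.43 log2 units and a range of 0.19 to 1.59, and 7 genes differed at least 2-fold. The interval of the mean difference lay within 2-fold for 9155 genes (93.5%). The 109 genes had a median level of 86.8 CPM and the 111 genes 85.3 CPM, against 34.8 CPM over all genes tested. This count depended on the libraries. It was 193, 15 and 53 without the libraries of replicate 1, 2 or 3, 96 without PFHpA replicate 2 at 100 µM, and 105 without the 0.1 µM libraries, 96 of which were among the 220.

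In the called genes, the median difference between the acids was widest at the lowest concentration. In the 109 genes higher with PFPeA, the median log2 difference was 0.71, 0.48, 0.45, 0.44, 0.37 and 0.26 from 0.1 to 100 µM. In the 111 genes lower with PFPeA it was -0.56, -0.44, -0.41, -0.4, -0.32 and -0.25. These values come from the libraries that chose the genes and describe them only. In the 109 genes, PFPeA lay at a median of 0.68 above DMSO at 0.1 µM and 0.46 above it at 100 µM, while PFHpA lay at -0.05 at 0.1 µM and 0.19 at 100 µM. In the 111 genes, PFPeA lay at -0.38 at 0.1 µM and -0.5 at 100 µM, and PFHpA at 0.21 at 0.1 µM and -0.27 at 100 µM. In both lists the medians of the acids lay nearer each other at 100 µM than at 0.1 µM. A change of the difference along the concentrations, tested further on, was called in 0 genes by edgeR.

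The mean over 6 concentrations also differed from DMSO in 88 genes with PFPeA (0.899%), 53 higher and 35 lower, with a median size of 0.85. For PFHpA edgeR called 0 genes, beside 664 at an unadjusted p under 0.05, and DESeq2 called 2. The PFPeA count was 18 without DMSO replicate 1 and 14 without DMSO replicate 2. It was 51, 7 and 28 when the libraries of replicate 1, 2 or 3 were left out of all groups, and 260 without the 0.1 µM libraries, where the PFHpA count was 17.

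The 10 µM libraries, which no step above used, gave a separate reading of the genes that separated the acids. These libraries differed from DMSO far more widely than those at neighbouring concentrations, with 1682 genes called for PFPeA (17.1%) and 1516 for PFHpA (15.4%), and whether they hold what their labels say was not tested. Of the 109 genes higher with PFPeA, 104 were also higher with PFPeA than with PFHpA at 10 µM (95.4%), with a median log2 difference of 0.39. Of the 111 lower genes, 102 were lower at 10 µM, with a median of -0.29. Over all 9793 genes, 50.3% were higher with PFPeA at 10 µM. At the level of single genes, the contrast of the acids at 10 µM called 0 differences in edgeR. It came from a fit of the 10 µM libraries together with the other 38. At an unadjusted p under 0.05 were 31 of the 109 higher and 15 of the 111 lower genes, beside 336 of all 9793. With RLE factors or library totals the counts were again 104 and 102. Both lists were chosen with the 0.1 µM libraries, and no count is given for lists chosen without them.

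**Figure D2:**
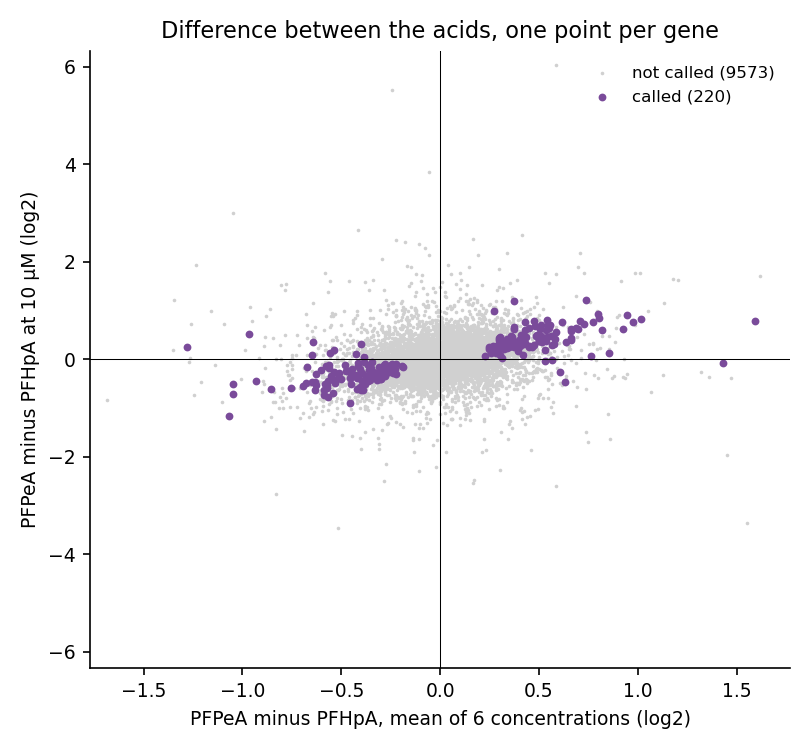
Log2 difference PFPeA minus PFHpA per gene, with the mean of the 6 concentrations on the x axis and the 10 µM libraries, which played no part in the fit, on the y axis. Coloured points are the 220 genes called on the x axis and grey points the other 9573; most called genes lie on the same side of 0 on both axes, 104 of 109 above and 102 of 111 below.

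The change along the concentration series was estimated as a slope in log2 units per 10-fold concentration. It used no DMSO library, so that the slopes of the acids share no library, although the acids were tested in the same exposure. PFPeA had 133 genes with a slope (1.36%), 17 rising and 116 falling, and PFHpA had 280 (2.86%), 102 rising and 178 falling. The median size of the called slopes was 0.26 for PFPeA and 0.27 for PFHpA, with ranges of 0.11 to 1.07 and 0.13 to 0.98. Scaling by library totals alone changed the split to 28 rising and 83 falling for PFPeA and to 151 rising and 129 falling for PFHpA, so that falls outnumbered rises under TMM, RLE and library totals for PFPeA, and under TMM and RLE alone for PFHpA.

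Genes that fell along the PFPeA series mostly had a negative slope in the PFHpA libraries. Of the 116 genes falling with PFPeA, 113 had a slope below 0 with PFHpA, with a median of -0.22 per 10-fold, and all 17 rising genes had a positive slope with a median of 0.16. Of the 178 genes falling with PFHpA, 171 had a slope below 0 with PFPeA, with a median of -0.15, and 91 of the 102 rising genes had a positive slope with a median of 0.09. Over all genes 50.3% of PFPeA slopes and 49.4% of PFHpA slopes were positive. Under library totals the counts were 111 of 116 and 168 of 178, beside 44.3% of all PFHpA slopes and 42% of all PFPeA slopes below 0.

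A slope was called for both acids in 66 genes, all in the same direction, 60 falling and 6 rising. Under library totals 50 genes were called for both, 40 of them falling, and again all in the same direction. The shared falls were 60 of the 116 PFPeA falls and 60 of the 178 PFHpA falls. Across all 9793 genes, the correlation of the slopes was 0.25, as a description over genes, which are not independent. The difference of the slopes between the acids was called in 0 genes by edgeR, with 535 at an unadjusted p under 0.05 (5.46%), and in 0 by DESeq2. Its interval had a median half-width of 0.27 per 10-fold, as large as the typical called slope, so a difference of that size was not detectable for the median gene. Since the calls are adjusted over genes and the interval is not, larger differences could be missed as well.

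Leaving out the lowest concentration lowered the number of called slopes, more so for PFHpA, and it also shortened the series and removed libraries. Without the 0.1 µM libraries, PFPeA had 87 genes with a slope, 12 rising and 75 falling, and PFHpA had 67, 14 rising and 53 falling. These included 70 of the 133 and 59 of the 280 genes. All 133 and all 280 kept the sign of their slope, which is a description, since both fits share the libraries of the other concentrations. The median size of the 280 PFHpA slopes was 0.27 with the 0.1 µM libraries and 0.22 without them. For the 133 PFPeA slopes it was 0.26 and 0.23. Without those libraries, 73 of the 75 PFPeA falls had a negative PFHpA slope, and 50 of the 53 PFHpA falls had a negative PFPeA slope, beside 50.8% of all PFHpA slopes and 49.2% of all PFPeA slopes. A slope was then called for both acids in 26 genes in place of 66, all in the same direction and 23 of them falling, and the correlation across genes was 0.18. Single libraries also mattered. Leaving out PFPeA replicate 2 or 3 at 100 µM gave 58 or 82 PFPeA genes, and leaving out PFHpA replicate 2 or 3 at 100 µM gave 81 or 35 PFHpA genes. Leaving out all libraries of replicate 1, 2 or 3 gave 130, 3 or 76 genes for PFPeA and 217, 42 or 23 for PFHpA.

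**Figure D3:**
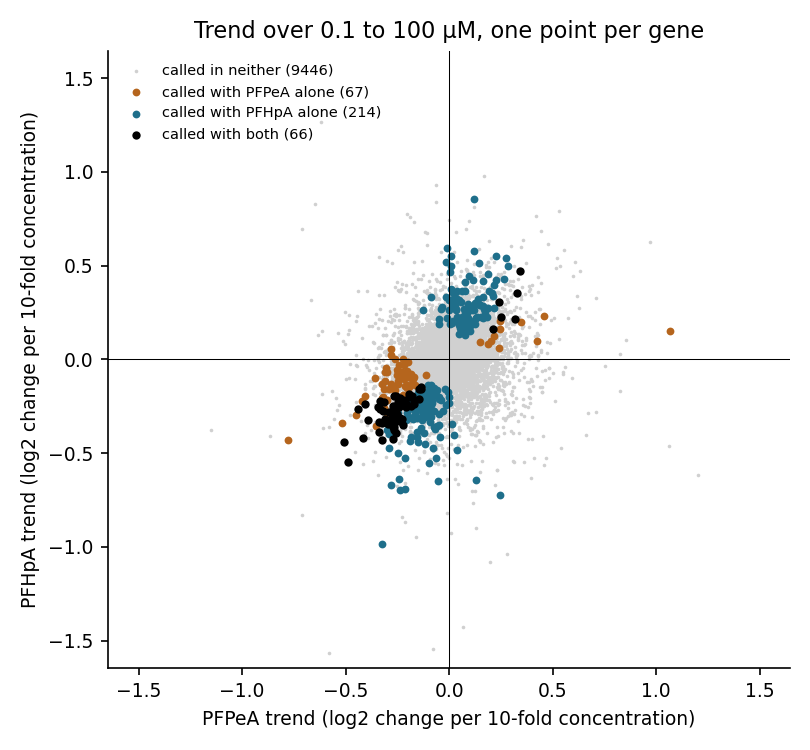
Slope per gene in log2 units per 10-fold concentration, PFPeA on the x axis and PFHpA on the y axis, over 9793 genes. Colours mark genes called for PFPeA alone (67), for PFHpA alone (214), for both (66) and for neither (9446); all 66 genes called for both lie where the signs are equal.

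Along the concentrations the medians of these lists ran the same way in the libraries of both acids. In the 116 genes falling with PFPeA, the median level relative to DMSO was 0.24, 0.02, 0.08, -0.31, -0.31 and -0.51 in PFPeA libraries from 0.1 to 100 µM. In PFHpA libraries the same genes lay at 0.22, 0.08, 0.05, -0.23, -0.21 and -0.42. The genes thus lay above DMSO at 0.1 µM, near it at 0.3 and 1 µM, and below it from 3 µM upward in both. Both acids are set against the same DMSO libraries here, so their positions relative to DMSO are not independent. The genes were chosen on the PFPeA slope, so the PFPeA medians at the ends of the series come with the choice. The 17 PFPeA rises had medians of -0.28 at 0.1 µM and 0.65 at 100 µM in PFPeA libraries, and -0.21 and 0.52 in PFHpA libraries.

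The genes with a called PFHpA slope were chosen on the PFHpA libraries, so wider medians in these libraries at the ends of the series come with the choice. The median of the 102 rising genes was -0.03 at 0.1 µM and 0.39 at 100 µM in PFPeA libraries, against -0.54 and 0.52 in PFHpA libraries at these concentrations. The 178 PFHpA falls lay at 0.07 and -0.4 in PFPeA libraries and at 0.4 and -0.55 in PFHpA libraries at 0.1 and 100 µM. The median over all genes was between -0.01 and 0.01 in every group.

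**Figure D4:**
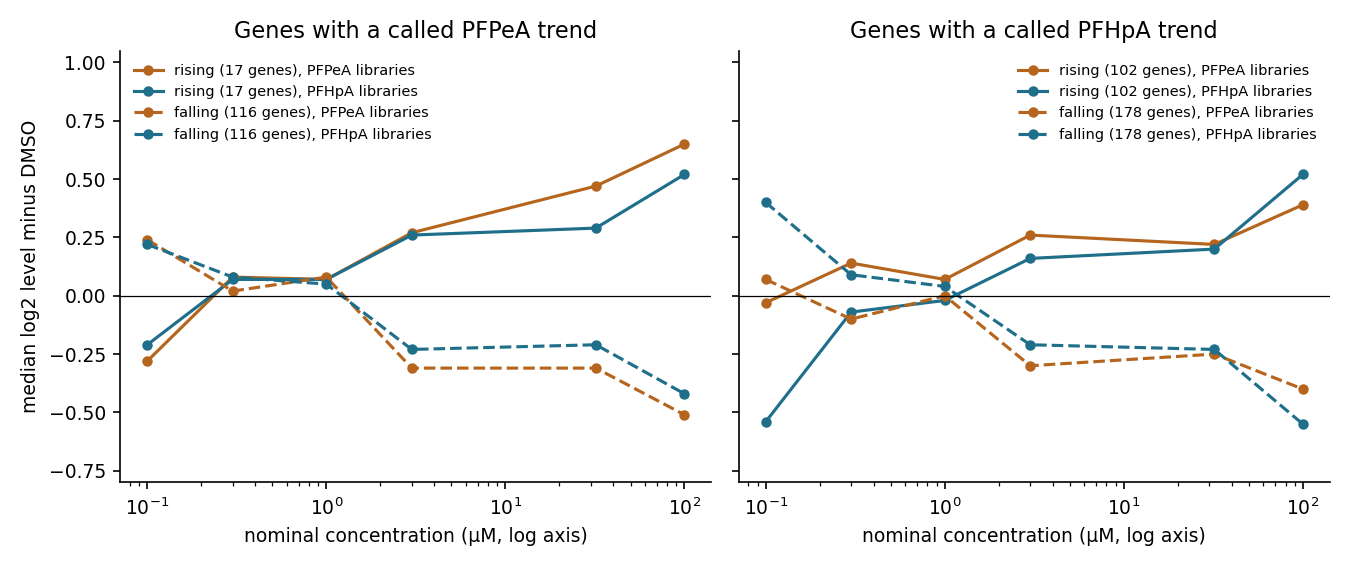
Median log2 level relative to DMSO (y axis) against nominal concentration (x axis, log scale, µM) for the genes with a called PFPeA slope (left) or PFHpA slope (right). Colours are the libraries of each acid, solid lines are rising genes and dashed lines falling genes. The 116 PFPeA falls lie at -0.51 with PFPeA and -0.42 with PFHpA at 100 µM.

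The contrast of 100 µM with 0.1 µM, the ends of the series, gave 80 genes for PFPeA (0.817%), 8 higher and 72 lower at 100 µM. For PFHpA it gave 272 genes (2.78%), 115 higher and 157 lower, of which 144 were at least 2-fold. Scaling by library totals turned the PFHpA split to 160 higher and 117 lower. The contrast was called for both acids in 43 genes, 5 higher and 38 lower in both, and in 0 genes in opposite directions. Without the libraries of replicate 2 the counts were 0 for PFPeA and 30 for PFHpA, and without those of replicate 3 the PFHpA count was 8. The difference of these changes between the acids was called in 0 genes by edgeR, with 582 at an unadjusted p under 0.05, and in 0 by DESeq2. Its median half-width was 0.99 on the log2 scale.

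The following genes are identified by the rule given with the processing, and their levels are in CPM, counts scaled to a common library size. Rsub_03043 was called higher than DMSO in 7 of the 12 treated groups, at every PFPeA concentration and at 100 µM PFHpA. It had 271, 263 and 395 CPM at 0.1 µM PFPeA and 120, 120 and 101 CPM at 0.1 µM PFHpA, against 88.3, 110 and 114 CPM in DMSO. At 3 µM it had 302, 348 and 308 CPM with PFPeA and 131, 164 and 203 CPM with PFHpA. At 100 µM it had 357, 280 and 302 CPM with PFPeA and 210 and 269 CPM with PFHpA. The PFPeA libraries were all above every DMSO library, and 13 of 18 were above every PFHpA library, while 16 of 17 PFHpA libraries were above every DMSO library.

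Over all concentrations Rsub_03043 ran from 228 to 395 CPM with PFPeA, median 291, and from 100 to 269 CPM with PFHpA, median 164. Its log2 change against DMSO was between 1.36 and 1.61 at the 6 PFPeA concentrations, at 100 µM 1.58 with a standard error of 0.19 (edgeR, adjusted p = 7.2e-07). For PFHpA the changes were 0.12, 0.72, 0.62, 0.67, 0.85 and 1.2 from 0.1 to 100 µM, and the change at 100 µM alone was called (SE 0.21, edgeR, adjusted p = 0.0022). That PFHpA call was lost without PFHpA replicate 3 at 100 µM, where the change was 1 (edgeR, adjusted p = 0.32), and without all libraries of replicate 2 (1.4, adjusted p = 0.17) or 3 (1.07, adjusted p = 0.37). The slope of Rsub_03043 was 0 per 10-fold with PFPeA (edgeR, adjusted p = 1) and 0.26 with PFHpA (adjusted p = 0.0031), and the difference of the slopes, -0.27, did not pass the test (adjusted p = 0.84).

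The difference between the acids in Rsub_03043 was 1.44 on the log2 scale at 0.1 µM (edgeR, adjusted p = 5.3e-05) and 0.95 at 3 µM (adjusted p = 0.039). Without the libraries of replicate 3 the call at 0.1 µM was lost (adjusted p = 0.064). At 100 µM it was 0.38, with a 95% interval of -0.03 to 0.79 (adjusted p = 0.92). The mean over 6 concentrations was 0.8 with a standard error of 0.08 (adjusted p = 1.1e-09). In the 10 µM libraries the gene had 307, 377 and 434 CPM with PFPeA and 169, 223 and 226 CPM with PFHpA, without overlap.

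Rsub_07325, the gene called lower than DMSO in most groups, passed in 5 of 12, at 3, 32 and 100 µM PFPeA and at 32 and 100 µM PFHpA. It had 408, 460 and 418 CPM at 100 µM PFPeA and 413 and 505 CPM at 100 µM PFHpA, against 1299, 1282 and 1154 CPM in DMSO. At 0.1 µM it had 794, 1271 and 520 CPM with PFPeA and 1412, 962 and 1367 CPM with PFHpA. At 1 µM the values were 632, 786 and 783 CPM with PFPeA and 1219, 930 and 668 CPM with PFHpA. All but 1 of the 18 PFPeA libraries, and 14 of the 17 PFHpA libraries, were below every DMSO library.

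The log2 change of Rsub_07325 at 100 µM was -1.54 with PFPeA (SE 0.2, edgeR, adjusted p = 4.1e-06) and -1.44 with PFHpA (SE 0.23, adjusted p = 0.00082). The PFHpA call was lost without PFHpA replicate 2 (-1.3, edgeR, adjusted p = 0.15) or 3 (-1.6, adjusted p = 0.07) at 100 µM, and without all libraries of replicate 2 (-1.29, adjusted p = 0.29). The acids differed in the mean over the 6 concentrations, by -0.32 with an interval of -0.49 to -0.15 (edgeR, adjusted p = 0.027). At 100 µM the difference was -0.1, with an interval of -0.55 to 0.35 (adjusted p = 1). In the 10 µM libraries Rsub_07325 had 550, 332 and 255 CPM with PFPeA and 689, 447 and 400 CPM with PFHpA, and the groups overlapped. The slope was -0.32 per 10-fold with PFPeA (adjusted p = 0.00024) and -0.43 with PFHpA (adjusted p = 2.9e-05), and their difference of 0.11 did not pass the test (adjusted p = 0.98). Without the libraries of replicate 2 the PFPeA slope was -0.26 (adjusted p = 0.11).

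Rsub_08374 had the largest positive mean difference between the acids among called genes of 1 sign at all 6 concentrations and a mean of at least 10 counts. It ran from 6.56 to 47.5 CPM with PFPeA, median 27.9, and from 3.91 to 28.3 CPM with PFHpA, median 13.6, against 8.21, 4.51 and 11.7 CPM in DMSO. The groups overlapped, with 9 of 18 PFPeA libraries above every PFHpA library. The mean difference was 1.02 on the log2 scale with a standard error of 0.21 (edgeR, adjusted p = 0.0067), and 0.75 without the libraries of replicate 2 (adjusted p = 0.3). At 10 µM it had 29.5 to 40.3 CPM with PFPeA and 14 to 25.1 CPM with PFHpA.

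Rsub_05780 had the largest negative mean difference under the same rule. It ran from 0 to 11.2 CPM with PFPeA, median 2.82, and from 1.61 to 17.3 CPM with PFHpA, median 7.97, against 1.8 to 3.33 CPM in DMSO. These levels rest on few counts, and 4 of 18 PFPeA libraries lay below every PFHpA library. The mean difference was -1.28 with a standard error of 0.32 (edgeR, adjusted p = 0.022). In the 10 µM libraries the gene was not lower with PFPeA, at 7.23, 4.4 and 5.64 CPM, against 5.73, 4.72 and 4 CPM with PFHpA, and the groups overlapped. The call was lost without PFHpA replicate 3 at 100 µM (-1.26, adjusted p = 0.053) and without the libraries of replicate 2 (-1.15, adjusted p = 0.32) or 3 (-1.12, adjusted p = 0.32).

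**Figure D5:**
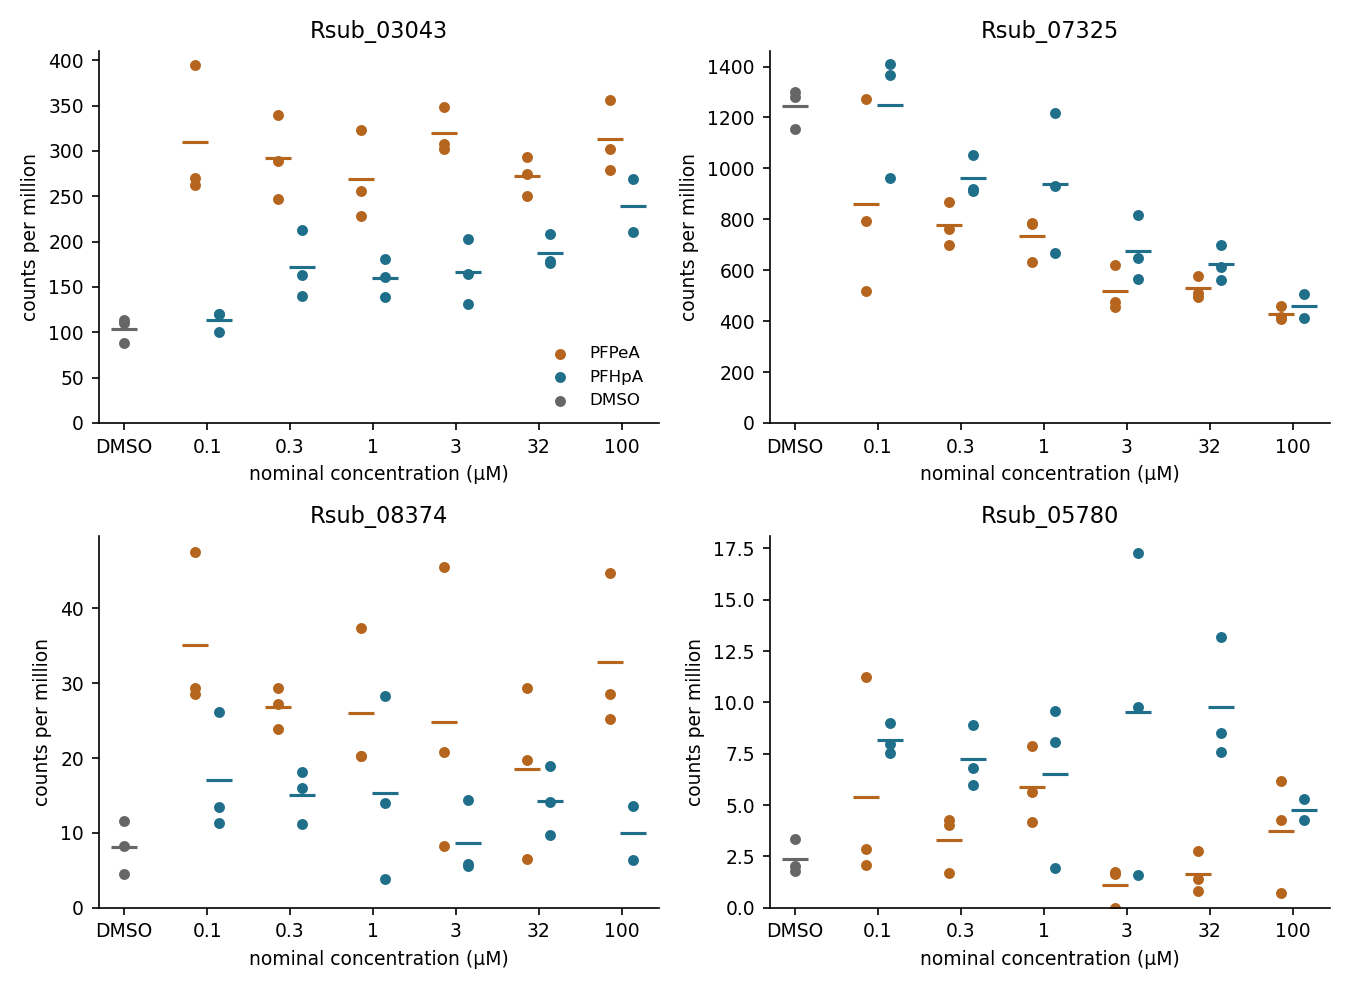
CPM of Rsub_03043, Rsub_07325, Rsub_08374 and Rsub_05780 (y axis) against nominal concentration (x axis, µM, with DMSO at 0), 1 point per library and a dash at the group mean. Rsub_03043 stayed between 228 and 395 CPM with PFPeA at all concentrations, while the PFHpA libraries rose along the series, and Rsub_07325 fell with both acids.

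The acids were also set against related compounds from other exposures, each relative to its own DMSO libraries. Perfluorooctanoic acid (PFOA) has the same head group and a longer fluorinated chain than PFHpA, and PF4OPeA is a carboxylic acid with an ether oxygen in its fluorinated chain. The fit of these compounds together tested 10041 genes. At 100 µM the change with PFPeA differed from that with PF4OPeA in 66 genes (0.657%), 9 higher and 57 lower with PFPeA, at a median size of 1.5 log2 units. The change with PFPeA differed from that with PFOA in 39 genes (0.388%), 8 higher and 31 lower, and the change with PFHpA from that with PFOA in 26 genes (0.259%), 5 higher and 21 lower. Compound and exposure cannot be told apart in these comparisons.

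These counts rested on few control libraries. Without replicate 3 of the PFOA exposure's DMSO libraries, they were 132 for PFPeA and 76 for PFHpA against PFOA, and without replicate 2 they were 21 and 6. The PFHpA count was also 11 without PFHpA replicate 2 and 5 without PFHpA replicate 3. For PFPeA against PF4OPeA the count was 13 without replicate 1 of either DMSO group and 16 without PFPeA replicate 2. Without the libraries of replicate 2 in all groups the counts were 1 against PF4OPeA, 3 for PFPeA against PFOA and 0 for PFHpA against PFOA.

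The slopes, which use no control library, were compared in the same way. In this fit slopes were called in 195 genes with PFPeA (1.94%) and 391 with PFHpA (3.89%), beside 40 with PFOA (0.398%) and 176 with PF4OPeA (1.75%). The slope with PFPeA differed from that with PFOA in 82 genes (0.817%), 21 higher and 61 lower with PFPeA, and from that with PF4OPeA in 106 genes (1.06%), 14 higher and 92 lower. The slope with PFHpA differed from that with PFOA in 62 genes (0.617%), 16 higher and 46 lower, and from that with PF4OPeA in 141 genes (1.4%), 35 higher and 106 lower. Slopes of PFPeA and PFHpA were thus distinguishable from those of both other compounds in some genes, where compound and exposure again cannot be told apart. The slopes of PFPeA and PFHpA were not compared with each other in this fit. In their own fit of 9793 genes, edgeR called 0 differences of slopes. That count was not 0 without the filter on low counts or with the replicate block.

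The 60 genes that fell along both series had a median slope of 0 with PFOA, where 34 were below 0 (56.7%, against 49% of all genes). With PF4OPeA the median was -0.04, and 42 were below 0 (70%, against 51.1%). Among the 60, the slope was called lower than with PFOA in 25 genes for PFPeA and 22 for PFHpA, beside 61 and 46 of all 10041 genes. It was called lower than with PF4OPeA in 17 genes for PFPeA and 24 for PFHpA, beside 92 and 106 of all genes. The 60 were chosen for called falling slopes with PFPeA and PFHpA, and these slopes enter the differences. Both the number and the direction of these calls therefore come with the choice and are a description.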

How the data were processed

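The deposited values are whole-number read counts per gene, made by the authors, and the submitters' processing notes name STAR 2.7.10a, featureCounts 2.0.6, fastp 0.23.2 and SAMtools 1.15.1. Not given in the sources used here are the genome build, the annotation and the treatment of molecular identifiers, and uncollapsed duplicate reads would lower the precision. Overlapping genes and near-identical copies may share reads. Both tables hold the same 3 control columns, which were used once. Solvents named for the series are DMSO or methanol, and these controls are labelled DMSO.

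In R 4.3.3, 38 libraries in 13 groups were fitted with edgeR 4.0.16 (filterByExpr, TMM, quasi-likelihood test, limma 3.58.1). Benjamini-Hochberg adjustment ran over all tested genes of a comparison, and over genes and the 6 matched concentrations for PFPeA minus PFHpA. Calls have an adjusted p under 0.05. Intervals are 95% intervals of the fit. CPM are counts scaled by the TMM library size. Slopes are linear contrasts of the group means in log10 concentration. Other compounds were fitted jointly with their own controls. The script was tested on simulated data.

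The members, lists and comparisons were chosen with earlier results of these data known. Named genes need a mean of at least 10 counts in a compared group. They are the genes called higher, or lower, than DMSO in the most of 12 groups, and those with the largest and smallest called mean difference of 1 sign at all 6 concentrations. Gene lists by product could not be matched, since no annotation was used here. Replicates differed beyond counting noise in all 37 pairs (chi-square per degree of freedom 2.41 to 17.63), and none was treated as a duplicate. Alternatives were RLE and library-total scaling, no filter, DESeq2 1.42.0, a replicate block, left-out libraries, added 10 µM libraries, the compared groups alone and rank of concentration. Chosen after seeing the data were the fits without 0.1 µM, the adjustment within each concentration, the use of 10 µM libraries as a separate reading and the slopes of PFOA and PF4OPeA.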

Additional observations from a re-analysis of the deposited data

Results flagged for a closer look

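The libraries at 10 µM, left out of the comparisons, differed from DMSO far more widely than those at any other concentration. With PFPeA 1682 genes were called (17.1% of 9858 tested), 870 higher and 812 lower, of which 745 were at least 2-fold. With PFHpA 1516 genes were called (15.4%), 740 higher and 776 lower, of which 602 were at least 2-fold. The 10 µM libraries held 1257524 to 1722603 counts. The cause was not tested, and the DMSO libraries are shared between both counts.

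The acids differed from each other at matched concentrations in 8 genes at 0.1 µM, 2 genes at 0.3 µM and 1 gene at 3 µM, and in 220 genes in the mean over 6 concentrations, each by a test of the difference itself.

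Changes at 100 µM relative to each compound's own DMSO libraries differed between PFPeA and PF4OPeA in 66 genes, between PFPeA and PFOA in 39 and between PFHpA and PFOA in 26, again by tests of the difference.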

How the results depend on the processing

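With RLE size factors all 30 counts recomputed stayed within 1.5 times the reported ones, as did the 3 recomputed with the rank of concentration. The counts at 10 µM and of the PFOA and PF4OPeA slopes were not recomputed. Of the 10 values of named genes that were recomputed, 9 of them with DESeq2, none changed sign where it was run. Library totals moved 2 counts, to 7 genes for 0.1 µM PFPeA and 1 for 3 µM PFHpA. They moved the share of higher genes from 12.8% to 25.2% for the PFPeA slopes, from 36.4% to 53.9% for the PFHpA slopes, from 42.3% to 57.8% for PFHpA at 100 against 0.1 µM, from 57.1% to 40% for 0.1 µM PFHpA, from 20.5% to 32.4% for PFPeA against PFOA and from 19.2% to 32% for PFHpA against PFOA. Adding the 10 µM libraries gave 2 genes for 1 µM PFPeA, 1 for 32 µM PFHpA and 5 between the acids at 0.1 µM.

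Less filtering and other tools called more genes. Without the filter on low counts, PFPeA had 70, 41, 17, 55, 59 and 117 genes against DMSO from 0.1 to 100 µM, and 165 in the mean. PFHpA had 20, 6, 5, 5 and 27 at 0.1, 0.3, 3, 32 and 100 µM, and 12 in the mean. The acids differed in 36, 4, 2 and 3 genes from 0.1 to 3 µM, and the differences of slopes and of changes were called in 1 gene each. DESeq2 called 78, 31, 12, 72, 86 and 180 genes for PFPeA from 0.1 to 100 µM, 152 in the mean, 157 for 100 against 0.1 µM and 214 slopes. For PFHpA it called 108, 2, 6, 4 and 44 at 0.1, 0.3, 3, 32 and 100 µM, 2 in the mean, 430 for 100 against 0.1 µM and 427 slopes. DESeq2 called 14 genes between the acids at 0.1 µM and 323 in their mean, 101 for PFPeA against PF4OPeA, 105 for PFPeA against PFOA and 62 for PFHpA against PFOA. Fitting the compared groups alone gave 0, 17, 9, 61, 56 and 158 genes for PFPeA from 0.1 to 100 µM, and 0, 4, 4 and 27 for PFHpA at 0.1, 3, 32 and 100 µM. Fewer genes were thus called at 0.1 µM for both acids, and more at the other concentrations listed. The cause was not tested.

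Adjustment within each concentration alone gave 41 genes between the acids at 0.1 µM and 0 at 3 µM. Without the 0.1 µM libraries, the mean difference between the acids was called in 105 genes, the mean against DMSO in 260 for PFPeA and 17 for PFHpA, and the slopes in 87 and 67. The contrast with the lowest remaining concentration was then called in 37 genes for PFPeA and 36 for PFHpA.

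Replicate numbers did not pair the samples by the rule used. Of 222 pairs of libraries with the same number in different groups, 40 had deviations that correlated above 0.1, with a median of 0.051. The 444 pairs with unlike numbers had a median of -0.034. Of 38 libraries, 29 were closest to their own number, which is a hint from the data only. The main fit, with its counts and intervals, takes no account of the replicate number. With the replicate block, PFPeA had 96, 63, 22, 87, 87 and 179 genes against DMSO from 0.1 to 100 µM, 224 in the mean, 145 for 100 against 0.1 µM and 203 slopes. With the block 15, 14 and 5 genes were lower with PFPeA than with DMSO at 0.1, 0.3 and 1 µM. PFHpA had 58, 3 and 4 genes at 0.1, 3 and 32 µM, 5 in the mean and 411 for 100 against 0.1 µM. With the block the acids differed in 41, 6, 3 and 4 genes from 0.1 to 3 µM, in 577 in the mean and in 1 slope, and the comparisons with PF4OPeA and PFOA gave 101, 83 and 47 genes.

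Leaving out libraries gave ranges of 1 to 39, 1 to 5, 0 to 1, 2 to 33, 4 to 28 and 9 to 67 genes for PFPeA against DMSO from 0.1 to 100 µM, 7 to 82 in the mean, 0 to 79 for 100 against 0.1 µM and 3 to 130 slopes. For PFHpA they were 0 to 45, 0 to 1, 0 to 0, 0 to 1, 0 to 1 and 0 to 21, 0 to 4 in the mean, 8 to 301 for 100 against 0.1 µM and 23 to 217 slopes. Between the acids they were 0 to 11, 0 to 1, 0 to 0, 0 to 0, 0 to 0 and 0 to 0, with 15 to 224 in the mean and 0 to 0 for both differences of slopes and changes. For PFPeA against PF4OPeA the range was 1 to 82, for PFPeA against PFOA 3 to 132 and for PFHpA against PFOA 0 to 76. Where 1 PFHpA library was left at 100 µM, it is assumed to vary like the other groups.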
